A study of Homo sapiens with 6 samples.

Results

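The inhibitor of apoptosis proteins (IAPs) and the TNF receptor associated factors (TRAFs) are represented here by 10 genes, which were chosen by name out of 23228 genes counted by RNA-seq in HEC-1-A cells: BIRC2, BIRC3, XIAP, BIRC6, CFLAR, TRAF1, TRAF2, TRAF3, RIPK1 and DIABLO. All 10 had enough counts to be among the 13408 genes tested. HEC-1-A is an established human endometrial adenocarcinoma line. The 3 SMIP34 libraries came from cells grown for 24 h in McCoy's 5A medium with serum and 20 µM SMIP34, a small-molecule inhibitor of the oncoprotein PELP1, and the 3 control libraries came from cells in the same medium without the compound, which the methods describe as vehicle. The labels do not say whether the libraries of a group were separate cultures, so the SDs given here are the spread between libraries of 1 cell line. Standard errors come from the fit of all genes to the same libraries. The 10 genes were picked with the difference between SMIP34 and control in these libraries already known. Their own values are therefore given as a description, and a statement that a member was or was not called only places it in the fit of all genes.

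Cells die by apoptosis when caspases are activated, either from the mitochondrion or from death receptors at the surface. XIAP binds and blocks active caspases, and DIABLO, which leaves the mitochondrion during apoptosis, displaces IAPs from them. BIRC2 and BIRC3 encode cIAP1 and cIAP2, ubiquitin ligases that are brought to TNF receptors by TRAF2 and that ubiquitinate RIPK1, a step that favours NF-kB signalling and survival over death. BIRC3, TRAF1 and CFLAR are textbook targets of NF-kB, and the CFLAR protein, c-FLIP, blocks activation of caspase-8.

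BIRC3 and BIRC2 lie side by side on the forward strand of chromosome 11. In the hg19 annotation of the files, the exons of BIRC3 span 102188181 to 102210135 and those of BIRC2 span 102217966 to 102249401, with 7830 bases between the genes. Promoter sequences (250 bases before and 50 bases from the annotated start, GRCh38.p14) were taken from RefSeq, which holds 24 promoters for the 10 genes. They were searched on both strands for the kB consensus, the DNA motif bound by NF-kB, and for the AP-1 motif TGANTCA. Those of BIRC3 (chr11:102317234-102317533, + strand), BIRC2 (chr11:102346964-102347263, + strand, the first of its annotated starts), CFLAR (chr2:201118466-201118765, + strand, the first of its annotated starts) and TRAF3 (chr14:102777199-102777498, + strand) are shown, because they set the member with the largest difference beside its neighbour and beside other members with a kB match. Capitals mark matches to the kB consensus.
BIRC3: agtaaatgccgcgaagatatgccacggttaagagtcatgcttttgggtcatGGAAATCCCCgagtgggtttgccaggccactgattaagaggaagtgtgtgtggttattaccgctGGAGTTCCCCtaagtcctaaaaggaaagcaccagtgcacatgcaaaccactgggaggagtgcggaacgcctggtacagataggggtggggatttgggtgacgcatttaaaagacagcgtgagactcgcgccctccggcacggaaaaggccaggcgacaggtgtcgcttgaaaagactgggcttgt
BIRC2: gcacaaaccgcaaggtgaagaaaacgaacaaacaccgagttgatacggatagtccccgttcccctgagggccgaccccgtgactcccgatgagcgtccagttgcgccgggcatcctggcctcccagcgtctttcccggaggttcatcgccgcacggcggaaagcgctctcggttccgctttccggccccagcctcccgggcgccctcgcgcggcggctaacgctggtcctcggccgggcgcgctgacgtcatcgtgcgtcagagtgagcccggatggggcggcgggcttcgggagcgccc
CFLAR: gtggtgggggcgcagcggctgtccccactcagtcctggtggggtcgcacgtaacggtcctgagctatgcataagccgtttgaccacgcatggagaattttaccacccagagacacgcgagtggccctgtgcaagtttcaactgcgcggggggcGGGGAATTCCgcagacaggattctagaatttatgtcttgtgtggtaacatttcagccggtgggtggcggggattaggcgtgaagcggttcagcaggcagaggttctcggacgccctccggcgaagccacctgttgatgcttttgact
TRAF3: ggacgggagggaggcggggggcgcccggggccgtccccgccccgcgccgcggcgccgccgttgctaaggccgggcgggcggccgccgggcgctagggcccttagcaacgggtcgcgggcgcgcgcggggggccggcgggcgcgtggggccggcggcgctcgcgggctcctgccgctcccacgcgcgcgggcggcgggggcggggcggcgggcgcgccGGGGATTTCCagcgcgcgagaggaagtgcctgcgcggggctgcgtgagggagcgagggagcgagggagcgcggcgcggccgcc

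The BIRC3 promoter held 2 matches to the kB consensus, GGAAATCCCC from 199 to 190 and GGAGTTCCCC from 135 to 126 bases before the start, both on the reverse strand. The BIRC2 promoter shown held none of either motif. Single matches were found in CFLAR (GGGGAATTCC), TRAF3 (GGGGATTTCC) and BIRC6 (GGGGGTCCCC, which matches on both strands). Of the 24 promoters of the members, 4 held the kB consensus, against 11.3% of the 35116 promoters in the table. The AP-1 motif stood in 1 of the 24, a further promoter of CFLAR, against 7.71% of all promoters. A match is a description of the letters in this window, and windows further from the start were not searched.

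Each library held 19562711 to 22014835 counts on genes, and the scaling factors of the TMM method between 0.988 and 1.01. Control replicate 1 had counts on 16881 genes, against 15965 to 16100 in the other 5 libraries. Levels are given in CPM, the counts of a gene relative to its TMM-scaled library. All 10 endometrial epithelial markers, such as EPCAM and PAX8, were at 1 CPM or more. By the adjusted p-value of edgeR's quasi-likelihood test, 1 was higher and 4 were lower under SMIP34. Over all genes tested, 17.4% were higher and 17.2% were lower. The 10 markers summed to 5669 to 5870 CPM in control and 5564 to 5692 CPM in SMIP34 libraries. Of 13 stromal, endothelial and immune markers 2 reached a mean of 1 CPM, and the 13 summed to 5.20 to 6.18 CPM in control and 6.29 to 7.35 CPM in SMIP34 libraries, with LUM, CD3E and MS4A1 at 0. Of these, COL1A1 was higher (log2 fold change 0.50, adjusted p = 0.0151 in edgeR's quasi-likelihood test). All libraries came from 1 cell line, and the part of any other cell types in the members' values was not tested. In bulk RNA, fewer cells of a type and less RNA per cell cannot be told apart. The mRNA of PELP1 was at 133 to 146 CPM in control and 151 to 159 CPM in SMIP34 libraries. It was higher, with a log2 fold change of 0.16 and a standard error of 0.035 (adjusted p = 0.000746 in edgeR's quasi-likelihood test). The decrease of PELP1 that the paper reports under SMIP34 was of the protein, seen by Western blotting in cells and by immunohistochemistry in xenograft tumors.

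BIRC3, the gene of cIAP2, was the member with the largest difference. It stood at 46.7, 46.4 and 47.7 CPM in control replicates 1, 2 and 3 and at 97.6, 95.6 and 95.96 CPM in SMIP34 replicates 1, 2 and 3. The groups were far apart, and the spread within each was small, with means of 46.9 ± 0.672 and 96.4 ± 1.06 CPM (SD, n = 3 each). The ratio of the means was 2.05 and the log2 fold change 1.04 (standard error 0.039). Among the 10910 tested genes that averaged 5 CPM or more, BIRC3 ranked 15 by increase. It was the only member past the fold limit, an absolute log2 fold change over 0.5 together with a call in edgeR's quasi-likelihood test (Benjamini-Hochberg adjusted p-value below 0.05). Of all genes tested 3.31% met this rule, 1.44% higher and 1.87% lower.

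**Figure D1:**
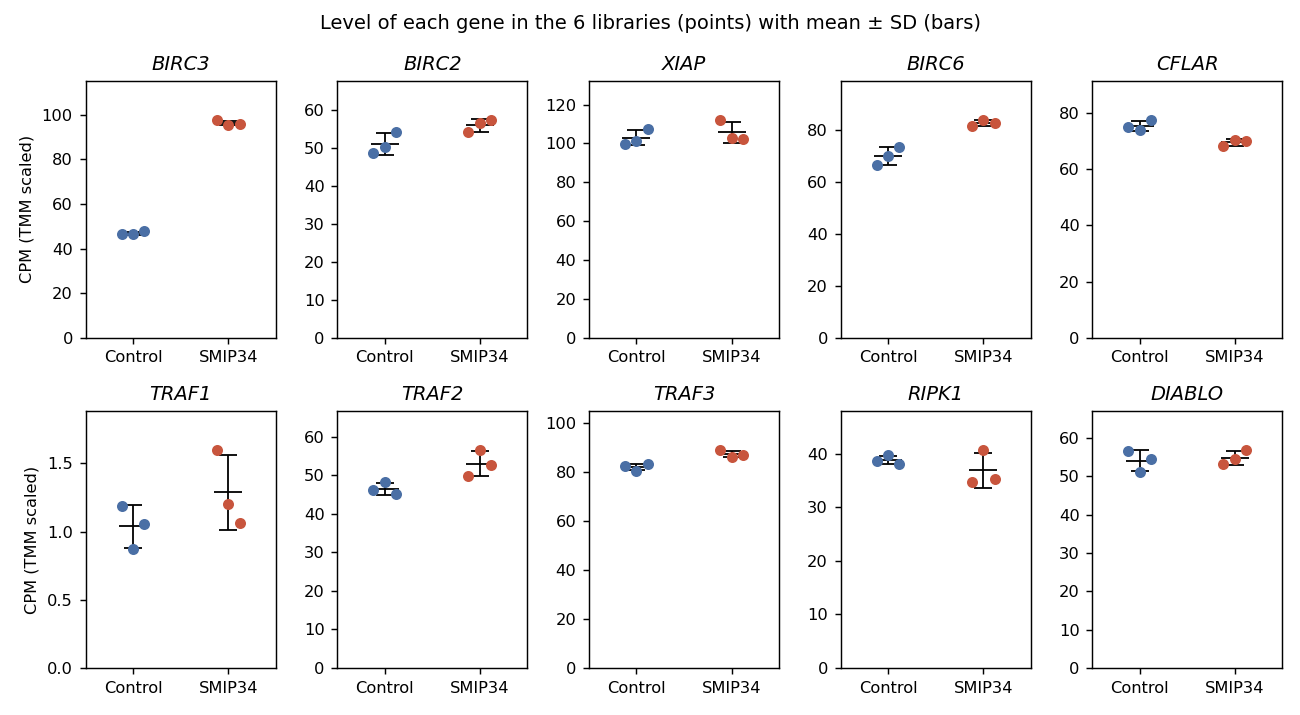
TMM-scaled CPM of the 10 genes in each of the 3 control and 3 SMIP34 libraries (points), with mean ± SD (black bars) on axes that start at 0. BIRC3 went from 46.9 to 96.4 CPM on average, while the groups of BIRC2, XIAP, TRAF1, RIPK1 and DIABLO overlapped.

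BIRC2, the gene of cIAP1, stood at 48.6, 50.4 and 54.3 CPM in control and at 54.2, 56.7 and 57.4 CPM in SMIP34 libraries. Control replicate 3 lay just above SMIP34 replicate 1, so the groups overlapped, and the log2 fold change was 0.13 (standard error 0.047). Within a library, the ratio of BIRC3 counts to BIRC2 counts does not depend on how libraries are scaled. It was 0.961, 0.919 and 0.877 in control replicates 1, 2 and 3 and 1.80, 1.68 and 1.67 in SMIP34 replicates 1, 2 and 3, with no overlap. As both genes were picked on these values, the ratio is a description.

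Genes around BIRC3 were examined after its values had been seen. Of 20 other genes within 1 Mb, 7 were tested. BIRC2 and MMP7 passed the adjusted p-value in edgeR's quasi-likelihood test, 1 higher and 1 lower. Over all genes tested, 34.6% passed it, 17.4% higher and 17.2% lower, and no difference from these shares was tested. MMP7, the gene of the secreted protease matrilysin, fell between control and SMIP34 libraries from 4.25 ± 0.223 to 2.16 ± 0.260 CPM (SD, n = 3 each), and its log2 fold change was -0.98 with an SE of 0.17 (adjusted p = 6e-05). The remaining 5, which included the transcriptional coactivator gene YAP1 (log2 fold change 0.069) and TMEM123 (0.016), were not called.

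**Figure D2:**
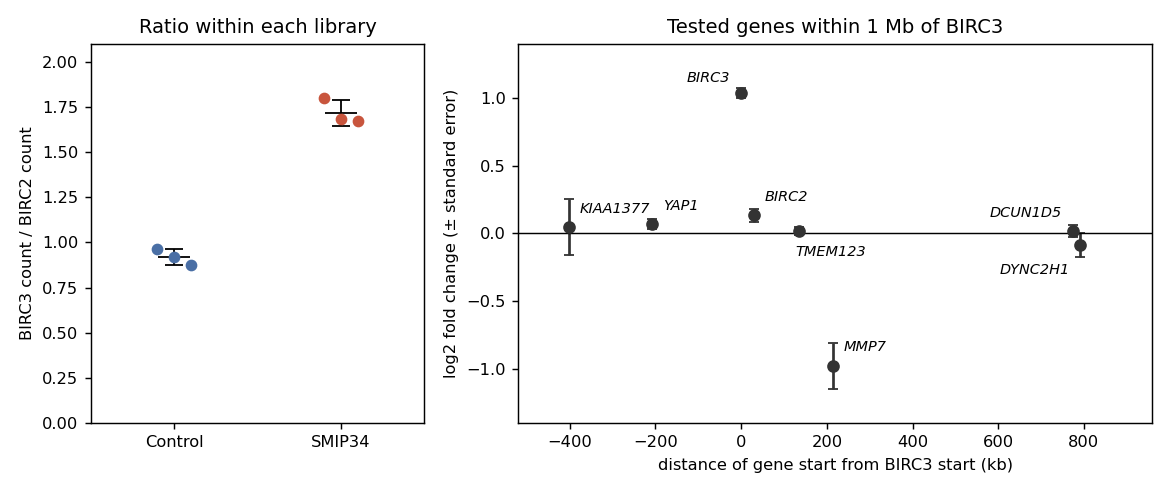
Left, ratio of BIRC3 counts to BIRC2 counts in each library (points) with mean ± SD. Right, log2 fold change of SMIP34 over control (± standard error) for the 7 tested genes within 1 Mb of BIRC3 and for BIRC3 itself, against the distance of their starts. BIRC3 at 1.04 and MMP7 at -0.98 stood apart from genes near 0.

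XIAP had the highest CPM of the members, a measure that is not corrected for exon length, and ranked 4 per kilobase of exon in control. It stood at 99.98, 101.5 and 107 CPM in control and 112, 103 and 102 CPM in SMIP34 libraries. The ranges overlapped, and the log2 fold change was 0.039 (standard error 0.039), with a sign that turned when libraries were corrected for gene length (-0.048). BIRC6, whose very large protein carries both a BIR domain and a ubiquitin-conjugating domain, stood at 66.7, 70.2 and 73.5 CPM in control and at 81.7, 83.96 and 82.9 CPM in SMIP34 libraries. Every SMIP34 library lay above every control, and the log2 fold change was 0.24 (standard error 0.040). BIRC6 has 15702 bases of exon, and after offsets had taken out the trend of each library with exon length, its log2 fold change was 0.091 and it was no longer called. The 1341 tested genes with the longest exons, 6891 bases or more, had a median log2 fold change of 0.12, and BIRC3, XIAP, BIRC6, CFLAR and TRAF3 are among them. Over the 1341 with the shortest exons it was -0.10.

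CFLAR was lower. It stood at 74.9, 73.9 and 77.5 CPM in control and at 68.2, 70.6 and 70.2 CPM in SMIP34 libraries, so every SMIP34 library lay below every control. The log2 fold change was -0.11 (standard error 0.039), and with length offsets it was -0.25. The antisense gene CFLAR-AS1 overlaps its exons, reads were counted by strand, and the part of antisense reads was not tested. The ratio of CFLAR to BIRC6 counts was 1.12, 1.05 and 1.05 in control replicates 1, 2 and 3 and 0.835, 0.840 and 0.847 in SMIP34 replicates 1, 2 and 3.

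Among the TRAF genes, TRAF2, the adaptor that carries cIAP1 and cIAP2 to TNF receptors, stood at 46.1, 48.2 and 45.2 CPM in control and at 49.8, 56.4 and 52.7 CPM in SMIP34 libraries. The groups did not overlap, and the log2 fold change was 0.19 (standard error 0.049). TRAF3, which with TRAF2 and the cIAPs keeps the kinase NIK at low levels, stood at 82.5, 80.4 and 82.95 CPM in control and at 88.7, 85.95 and 86.9 CPM in SMIP34 libraries. Its groups did not overlap either, but the difference was small, a log2 fold change of 0.090 (standard error 0.036), and TRAF3 was not called. The log2 fold change of TRAF3 was 0.013 with length offsets and 0.12 with GC offsets. TRAF1, which lacks the RING domain of the other TRAFs and is known as an NF-kB target, was close to the limit of detection, with 23, 19 and 22 counts in control and 35, 26 and 23 counts in SMIP34 libraries. At 1.04 ± 0.156 CPM in control and 1.29 ± 0.276 CPM in SMIP34 libraries (SD, n = 3 each), its groups overlapped, and the standard error of its log2 fold change of 0.32 was 0.28. Without SMIP34 replicate 1 the log2 fold change of TRAF1 was 0.13, and without control replicate 2 it was 0.20. At that depth a change as large as that of BIRC2, BIRC6 or TRAF2 could not have been seen in TRAF1.

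RIPK1, the kinase that IAPs ubiquitinate and that can start apoptosis or necroptosis, stood at 38.7, 39.7 and 38.1 CPM in control and at 34.8, 40.6 and 35.4 CPM in SMIP34 libraries. SMIP34 replicate 2 lay above all controls and the other SMIP34 replicates below them, and the log2 fold change was -0.073 (standard error 0.056). It was -0.15 without SMIP34 replicate 2, -0.031 without SMIP34 replicate 1 and -0.043 without SMIP34 replicate 3. DIABLO, the IAP antagonist, stood at 56.5, 51.1 and 54.5 CPM in control and at 53.2, 54.5 and 56.7 CPM in SMIP34 libraries. The ranges covered each other, and the log2 fold change was 0.022 (standard error 0.046).

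In all, 4 members were higher (BIRC3, BIRC6, TRAF2 and BIRC2) and 1 was lower (CFLAR) by the adjusted p-value alone, and 5 were not called. By the same rule 17.4% of all genes tested were higher and 17.2% were lower. The groups of 5 members did not overlap, 4 higher and 1 lower, against 44.5% of all tested genes (22.6% higher and 21.9% lower). Members had a median log2 fold change of 0.11, and all tested genes one of -0.0022. Without BIRC3, the members' median absolute log2 fold change was 0.115, against 0.119 over all tested genes. Since the members were picked on these libraries, nothing is read from these counts.

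**Figure D3:**
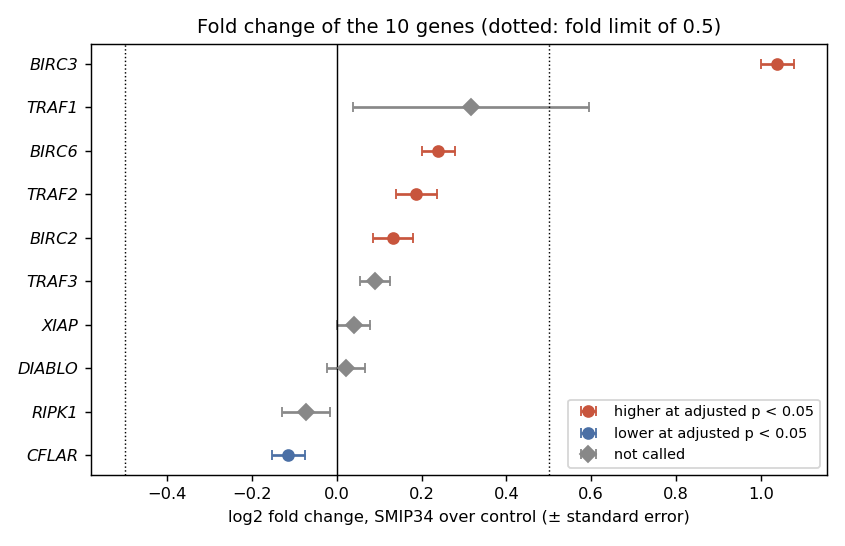
Log2 fold change of SMIP34 over control for each of the 10 genes, with standard errors from the quasi-likelihood fit; dotted lines mark the fold limit of 0.5 in either direction. BIRC3 at 1.04 lies beyond the limit, and the other 9 lie between -0.11 and 0.32.

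Levels were compared between genes per kilobase of annotated exon, in CPM per kilobase, which understates genes whose annotation holds exons that these cells do not use. In control libraries the order was DIABLO (23.0 ± 1.15), TRAF2 (20.4 ± 0.673), BIRC2 (13.7 ± 0.781), XIAP (12.05 ± 0.456), TRAF3 (10.5 ± 0.172), RIPK1 (10.0 ± 0.207), BIRC3 (6.79 ± 0.0972), CFLAR (6.19 ± 0.154), BIRC6 (4.47 ± 0.219) and TRAF1 (0.227 ± 0.0342; SD, n = 3 each). No neighbours in this order had overlapping ranges over the 3 control libraries, with TRAF3 and RIPK1 the closest (lowest 10.34 against highest 10.27). DIABLO was above 72.2% and TRAF1 above 3.13% of the genes tested. In SMIP34 libraries BIRC3 was at 13.9 ± 0.153 and ranked 4 in place of 7, above XIAP (12.4 ± 0.629), TRAF3 (11.2 ± 0.177) and RIPK1 (9.56 ± 0.837), while the rest kept their order by mean. The ranges of DIABLO (22.6 to 24.2) and TRAF2 (21.9 to 24.8) overlapped in SMIP34 libraries. Of the summed per-kilobase level of BIRC2, BIRC3, XIAP and BIRC6, BIRC3 made up 18.9, 18.4 and 17.8% in control and 30.1, 29.8 and 29.9% in SMIP34 replicates 1, 2 and 3. The summed CPM of these 4 IAP genes was 262 to 283 in control and 339 to 345 in SMIP34 libraries, and that of TRAF1, TRAF2 and TRAF3 was 129 to 130 and 140 to 144.

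The genes whose values were most like those of BIRC3 over the 6 libraries were found by the Euclidean distance of log2 CPM, taken relative to the control mean, among tested genes averaging 5 CPM or more. They were ZC3H12A (distance 0.095), which encodes an RNase that degrades inflammatory mRNAs, the interferon-stimulated genes IFIT2 (0.12) and RSAD2 (0.15), PPP1R15A (0.21), which encodes a phosphatase subunit of the stress response, and JAK1 (0.22), a cytokine receptor kinase. ZC3H12A stood at 12.96 ± 0.400 CPM in control and 27.6 ± 0.492 CPM in SMIP34 libraries, and IFIT2 at 45.6 ± 1.19 and 90.3 ± 0.545 CPM (SD, n = 3 each). JAK1 stood at 3.42 ± 0.261 and 6.72 ± 0.210 CPM, so it averaged 5 CPM or more only through its level in SMIP34 libraries. With 2 groups and the control mean taken off, this distance mostly measures how close a fold change is to that of BIRC3. The list therefore describes genes of like fold change, from 0.93 (PPP1R15A) to 1.10 (RSAD2) in log2, and shared regulation was not tested.

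The other genes of the pathway were read from 8 lists with 103 genes, of which 79 were tested. In edgeR's quasi-likelihood test with adjustment over all 13408 genes, 24 were higher and 10 were lower, against shares of 17.4% and 17.2% over all tested genes. Past the fold limit were 1 higher and 1 lower gene, against 1.44% and 1.87% over all tested genes. These all-gene shares are the background for each list's counts, and with 2 to 17 tested genes a list no difference from them was tested. Of the other IAP genes, BIRC5, which encodes survivin, a protein of cell division, was at 217 and 215 CPM on average in control and SMIP34 libraries, BIRC7 was at 1.85 ± 0.367 and 1.66 ± 0.285 CPM (SD, n = 3 each; log2 fold change -0.16, adjusted p = 0.63), and BIRC8 and NAIP had too few counts to test. Neither of the tested genes was called. Of the other TRAF genes, 2 of 4 rose. TRAF4 went from 99.1 ± 0.487 to 112 ± 2.94 CPM (log2 fold change 0.18 with an SE of 0.034, adjusted p = 0.000245). TRAF6, which serves receptors of the IL-1 and Toll-like families, went from 12.3 ± 1.26 to 14.5 ± 1.06 CPM (log2 fold change 0.24 with an SE of 0.089, adjusted p = 0.0368). TRAF5 was at 2.40 and TRAF7 at 247 CPM on average in control, and neither was called.

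The list of deubiquitinases, TRAF-binding proteins and related genes held the largest increase. TNFAIP3, the gene of A20, which edits ubiquitin on RIPK1 and is an NF-kB target, rose from 7.44 ± 0.741 CPM in control to 21.2 ± 0.721 CPM in SMIP34 libraries (SD, n = 3 each), and its log2 fold change was 1.51 with an SE of 0.087 (adjusted p = 2.66e-13). CYLD, a deubiquitinase that opposes the cIAPs, rose from 51.9 ± 2.06 to 62.96 ± 1.75 CPM (log2 fold change 0.28, adjusted p = 1.67e-05). Of the 17 tested, 7 rose, where 17.4% of all tested genes were higher, and 2 fell, where 17.2% were lower. Those that fell were TRAIP (-0.18, adjusted p = 0.0358) and USP18 (-0.15, adjusted p = 0.0474). The list had a median log2 fold change of 0.098. Under the 19 alternatives described at the end, USP18 lost its call in 14, TRAIP in 10, TRAF6 in 9 and IKBKB in 8. In the list of complex I, the LUBAC ubiquitin ligase and the TAK1 and IKK kinases, 5 of 15 rose and 1 fell. TAB2, an adaptor of TAK1, rose from 81.3 ± 1.89 to 96.5 ± 1.69 CPM (log2 fold change 0.25, adjusted p = 6.5e-06), and CHUK, the gene of IKK-alpha, had a log2 fold change of 0.19 (adjusted p = 0.00596). IKBKB, the gene of IKK-beta, fell from 32.9 ± 0.468 to 29.5 ± 1.88 CPM (log2 fold change -0.16, adjusted p = 0.033). The list median was 0.037.

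At the surface, 4 of 17 tested genes of the TNF receptor superfamily rose and 3 fell, with a median log2 fold change of 0.18. Of the tested receptors, 14 averaged 1 CPM or more over the 6 libraries. The others, NGFR (log2 fold change 0.99), TNFRSF13C (0.40) and TNFRSF19 (0.32), were not called, and all lay above this median. The share that fell is close to the 17.2% of all tested genes that were lower. TNFRSF10B, a receptor for TRAIL, rose from 184 ± 7.19 to 228 ± 1.73 CPM (SD, n = 3 each; log2 fold change 0.31 with an SE of 0.031, adjusted p = 1.38e-08), and RELT had a log2 fold change of 0.37 (adjusted p = 0.000116). LTBR, the lymphotoxin beta receptor, which signals through TRAF2 and TRAF3, fell from 99.8 ± 1.27 to 84.8 ± 2.02 CPM (log2 fold change -0.24, adjusted p = 9.8e-06), and EDAR, the ectodysplasin receptor, had a log2 fold change of -0.24 (adjusted p = 7.9e-05). Of the 17 ligands of the family 7 were tested. None rose and 4 fell, beside 17.4% higher and 17.2% lower over all tested genes, with a list median of -0.30. TNFSF4, the ligand of OX40, fell from 1.95 ± 0.144 to 1.04 ± 0.268 CPM (log2 fold change -0.90, adjusted p = 0.00629), and TNFSF10, the gene of TRAIL, from 15.2 ± 1.27 to 11.7 ± 0.974 CPM (log2 fold change -0.37, adjusted p = 0.00173). The level of TNFSF4 was low, and its log2 fold change was -0.29 with the normal prior of DESeq2, an alternative described at the end. With 1 library left out it lay between -1.12 and -0.75. TNF and LTA had too few counts to test.

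Downstream, 4 of 10 tested caspase and IAP antagonist genes rose and none fell, with a median of 0.047, beside 17.4% higher and 17.2% lower over all tested genes. APAF1, the scaffold of the apoptosome, had a log2 fold change of 0.19 (adjusted p = 0.00296), which was 0.10 and not called with length and GC offsets together (adjusted p = 0.082). HTRA2 (-0.0088), an IAP antagonist like DIABLO, was not called. The list of complex II, the necrosome and related genes had 7 tested genes and a median of 0.064. Of these 2 rose, the related genes RIPK4 (log2 fold change 0.24, adjusted p = 0.013) and CASP8AP2 (0.19, adjusted p = 0.002). RIPK4 was not called without control replicate 3 (0.20, adjusted p = 0.0574), nor CASP8AP2 with length and GC offsets together (0.10, adjusted p = 0.0771). CASP8 (0.063) and FADD (0.062), the core of the death-inducing complex, were not called, and RIPK3 had too few counts to test.

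**Figure D4:**
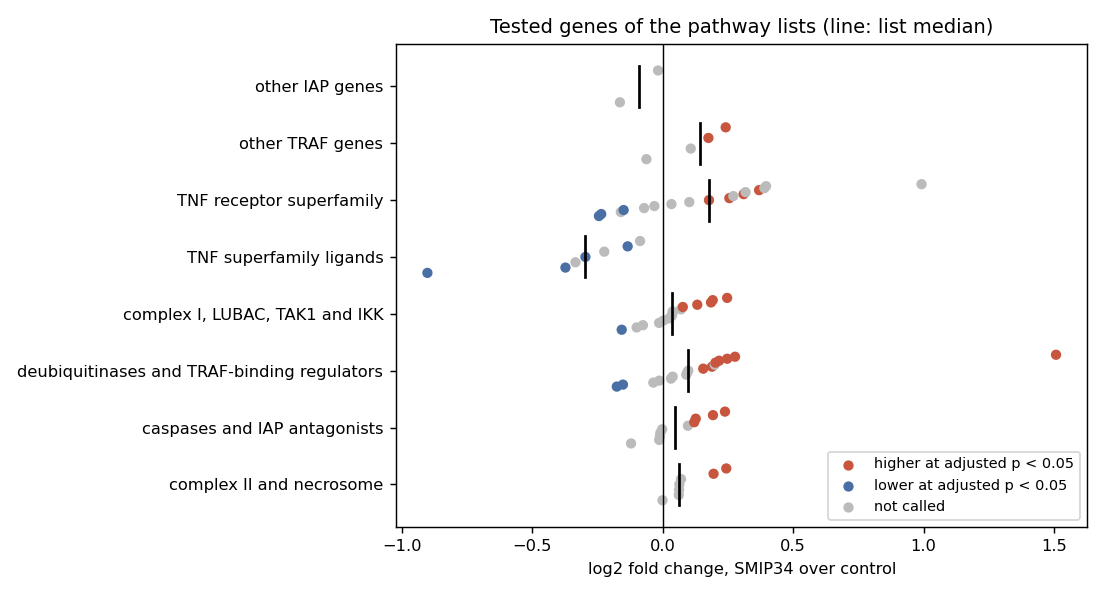
Log2 fold change of SMIP34 over control for the 79 tested genes of the 8 pathway lists, 1 point per gene, with the list median as a black line; the height of a point within its list only separates the points. TNFAIP3 at 1.51 lies farthest to the right, and the 7 tested ligands all lie below 0.

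Every alternative way of processing kept BIRC3 called, with log2 fold changes between 0.94 and 1.06 over 19 alternatives. TRAF2 was also called in 19 of 19, between 0.14 and 0.25. BIRC6 was called in 17, between 0.075 and 0.28. CFLAR was called in 14, between -0.26 and -0.093, and BIRC2 in 10, between 0.080 and 0.18. TRAF3 was called in 4 of the 19, and XIAP, TRAF1, RIPK1 and DIABLO in none. BIRC2 was not called without control replicate 1 (log2 fold change 0.10), control replicate 2 (0.12), SMIP34 replicate 2 (0.12) or SMIP34 replicate 3 (0.12), and CFLAR was not called without control replicate 3 (-0.093) or SMIP34 replicate 1 (-0.10).

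**Figure D5:**
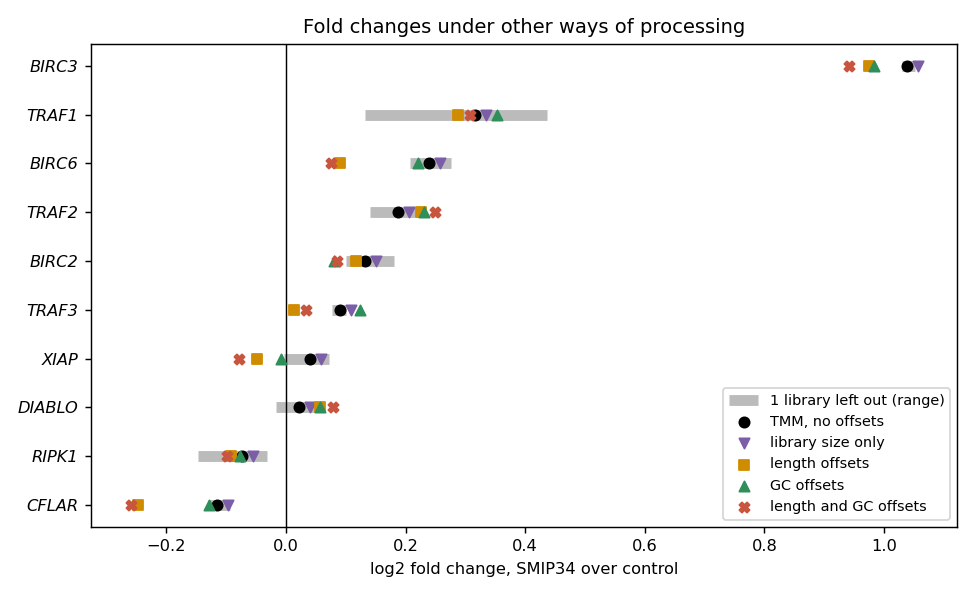
Log2 fold change of SMIP34 over control for each of the 10 genes with TMM scaling (black), with library size as the only scaling, and with offsets for gene length, GC content or both; grey bars span the values with 1 library left out. BIRC6 goes from 0.24 to 0.091 and CFLAR from -0.11 to -0.25 with length offsets, and BIRC3 stays at 0.94 or more.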

How the data were processed

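RNA of 3 control and 3 SMIP34 libraries of HEC-1-A cells was analysed, grouped by the treatment label. The authors deposited estimated counts per gene, with fractions of reads. According to the command kept in each header, featureCounts v1.5.0-p1 summed reads over exons of the UCSC hg19 annotation by strand, at a mapping quality of at least 2, and gave reads with several alignments or genes a fraction for each. The submitters' processing notes name HISAT2, while the paper's methods name tophat2 and HTSeq. No normalization had been applied. The labels name stranded library kits of different makers. Counts were rounded for the tests, and none of the 10 genes shares exons with another gene on its strand. Genes with few counts were removed with filterByExpr, libraries were scaled by TMM, and all 13408 genes were fitted in edgeR 4.0.16 by quasi-likelihood (legacy = FALSE) in R 4.3.3, with Benjamini-Hochberg adjustment. Called genes had an adjusted p-value below 0.05, and the fold limit was an absolute log2 fold change of 0.5. Standard errors were derived from the F statistic. The members and gene lists were chosen with earlier results of these data known. Genes named beside the members are up to 2 with the largest increase and up to 2 with the largest decrease among the called genes of each list, or the gene with the smallest adjusted p-value where none was called (BIRC7), PELP1 and the 5 genes most like BIRC3, except 1 list gene that is not reported here. Other genes, namely the neighbours of BIRC3, COL1A1, EPCAM, PAX8, LUM, CD3E, MS4A1, BIRC5, BIRC8, NAIP, TRAF5, TRAF7, NGFR, TNFRSF13C, TNFRSF19, TNF, LTA, HTRA2, CASP8, FADD and RIPK3, were named after their values were seen. Alternatives were DESeq2 1.42.0 with and without a normal prior, limma 3.58.1 voom, the legacy method, 3 other scalings, 2 other filters, a replicate block, loess offsets (span 0.3) on exon length, and leaving out each library. Offsets on GC content, alone and after length, were added after seeing the data. Deviations from the group means correlated at -0.028, 0.033 and -0.011 between same-numbered libraries, so replicate numbers were not used as pairs. Scripts were tested on simulated data. Figures were drawn with matplotlib 3.10.9.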

Additional observations from a re-analysis of the deposited data

How the results depend on the processing

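The count of 1 member past the fold limit held under all 19 alternatives, and the median log2 fold change of the members lay between 0.074 and 0.14. Members lower at the adjusted p-value fell from 1 to 0 with DESeq2, with its normal prior and with library size as the only scaling, and lay between 0 and 1 with 1 library left out. Members higher went from 4 to 2 with length and GC offsets together, and lay between 3 and 5 with 1 library left out. DESeq2's normal prior, which shrinks fold changes by construction, moved the genes past both thresholds from 444 to 117 and the pathway genes past the fold limit from 2 to 1. The log2 fold change of XIAP turned from 0.039 to -0.048 with length offsets, -0.0078 with GC offsets and -0.079 with both, and lay between -0.0034 and 0.072 with 1 library left out. With 1 library left out, that of DIABLO lay between -0.017 and 0.054, that of BIRC7 between -0.28 and 0.014, that of TRAF1 between 0.13 and 0.44 and that of RIPK1 between -0.15 and -0.031. The cause of these changes was not tested. With the replicate block, 453 genes passed both thresholds, with 4 members higher and 1 lower and 22 pathway genes higher and 9 lower, and the libraries share only a replicate number. The 26 named genes outside the members kept direction and side of the threshold in 448 of 494 values, 45 lost the adjusted p-value (14 of them for USP18, 10 for TRAIP, 9 for TRAF6 and 8 for IKBKB) and 1 changed sign. With about 1 CPM, TRAF1 is limited by counting error.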
